A study of Mus musculus with 2 samples.

Results

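The levels of 10 genes of the protein folding machinery were described in mouse heart: 7 small heat shock proteins (Cryab, Hspb1, Hspb2, Hspb3, Hspb6, Hspb7 and Hspb8), the co-chaperone Bag3, and the large chaperones Hspa8 and Hsp90aa1. They were chosen by gene symbol and not by a rule on their values, though earlier results of these data were known. They make up 10 of 55536 annotated genes. The series held 1 group of 2 total RNA libraries from the hearts of female mice aged 14 days, of the strain B6CASTF1/J, the first-generation hybrid of C57BL/6J and CAST/EiJ, with no treatment or allele named in the labels. Each library was made from 300 ng of RNA by a protocol that lowers ribosomal RNA, with ERCC spike-in RNAs added. Both libraries carry the same donor label, their animal numbers differ, and a shared description can be read as a pool of 3 females, so the spread between them may be partly technical. With 1 group, no groups could be compared, and the smallest two-sided p of an exact sign test on 2 values is 0.5. Replicates 1 and 2 held 36404376 and 34569708 expected counts, which are reads assigned to genes by a program that can split a read between features. Errors written after ± are the SD between the libraries (n = 2), and all intervals cover 1 library or counting error only.

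Small heat shock proteins share a conserved alpha-crystallin domain, assemble into oligomers and hold unfolding proteins without using ATP. HSP70 proteins such as HSPA8 then refold or hand on these clients in cycles of ATP use, HSP90 proteins complete the folding of kinases, receptors and myosin with dedicated co-chaperones, and BAG3 links small heat shock proteins to HSP70 and to autophagy. In striated muscle these proteins bind filamin, desmin, titin and actin at the Z-disc, and inherited changes in CRYAB and BAG3 cause cardiomyopathy in humans.

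Most of the genes were among the more abundant mRNAs of these hearts, and levels ran from Cryab, the highest, down to Hspb3. Levels were read in TPM, a transcript abundance that divides counts by transcript length, so that genes can be compared, and is scaled to the same sum in each library. The median of the 10 genes was 106 TPM in replicate 1 and 102 TPM in replicate 2, against 9.81 TPM over the 11733 protein-coding genes with a mean of at least 1 TPM. Of the genes, Cryab, Hspa8, Hspb7, Hspb6 and Hspb1 reached 100 TPM (5 of 10), a level reached by 5.06% of those 11733 genes. In whole tissue, fewer cells of a type and less RNA per cell cannot be told apart. The deposited tables hold 2 estimates per library, called here the first quantification (the source of levels unless said otherwise) and the second. In the first, no 2 neighbours in the order of levels overlapped over the libraries, while in the second Hspb2 and Hsp90aa1 did.

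**Figure D1:**
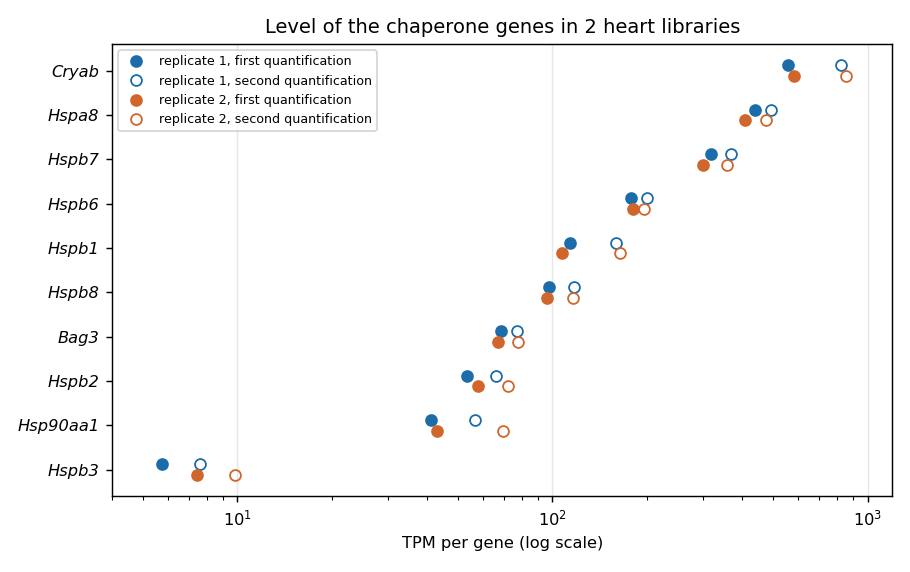
TPM (log axis) of each of the 10 genes in replicate 1 (blue) and replicate 2 (orange), in the first (filled) and the second quantification (open). Cryab is highest in all 4 columns of values (559 and 584 TPM in the first), Hspb3 lowest (5.74 and 7.46 TPM), and the distance between the libraries is small beside the distance between most genes.

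Cryab, which encodes alphaB-crystallin, a chaperone of desmin and titin first known from the eye lens, was the highest of the 10 genes. It measured 559 TPM in replicate 1 and 584 in replicate 2 (572 ± 17.3), rank 100 of the 11733 protein-coding genes. Counted over its coding transcripts alone, a choice made after seeing the data, it had 309.97 and 309.43 TPM and did not lead. The deposited intervals of the 2 libraries, 536 to 560 and 557 to 583 TPM, overlapped. Cryab made up 42.2% and 43.8% of the summed TPM of the 7 small heat shock genes (43.0% ± 1.12), which came to 1326 and 1334 TPM. Markers of the lens were at or near 0 in both libraries: Cryaa, Cryba1, Crybb2 and Crygs had no count, and the summed TPM of the 5 lens markers was 0.05 and 0. Cryaa encodes alphaA-crystallin, the lens partner of alphaB-crystallin.

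Hspb7, a small heat shock protein of heart and skeletal muscle that binds filamin C (ENSMUSG00000006221.7, chr4:141420779-141425311, plus strand), came next within the family. It measured 318 and 301 TPM (309 ± 12.04, rank 191) and took 23.3% ± 1.00 of the family's TPM. Counts not divided by length put it above Cryab, at 659 and 635 CPM (counts scaled by library size only) against 274 and 288; its transcript, of 2769 bases, is longer than any annotated Cryab transcript. Hspb6, also called HSP20, a target of protein kinase A in cardiomyocytes, stood at 178 and 179.9 TPM (179 ± 1.41, rank 341), the smallest relative difference between the libraries among the 10 genes. It lies at chr7:30552178-30555443 on the plus strand (ENSMUSG00000036854.14).

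Hspb1, which encodes HSP25, the mouse form of HSP27 and a regulator of actin filaments, measured 113 and 107 TPM (110.3 ± 4.26, rank 534). It lies at chr5:135887919-135889563 on the plus strand (ENSMUSG00000004951.10). Hspb8, or HSP22, the small heat shock protein best known as a partner of BAG3 (ENSMUSG00000041548.4, chr5:116408491-116422864, minus strand), measured 97.8 and 96.4 TPM (97.1 ± 1.02, rank 616). Their library values did not overlap, yet they lay closer together than any other neighbours among the 7 genes. Hspb1, Hspb8 and Hspb6 took 8.30%, 7.30% and 13.5% of the family's TPM.

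Hspb2 and Hspb3, whose proteins assemble with each other in muscle, were the lowest of the family and far from equal. Hspb2 measured 53.6 and 58.0 TPM (55.8 ± 3.08, rank 1083), or 4.20% of the family. Hspb3 measured 5.74 and 7.46 TPM (6.60 ± 1.22, rank 7315), or 0.496% of the family, from 110 and 138 counts. Hspb3 was thus the only one of the 10 genes below the median protein-coding gene. Hspb7 exceeded it by 5.56 ± 0.32 on the log2 scale of TPM (47.3-fold), and 185-fold in CPM, which is not divided by length. Hspb3 has 1 exon, lies at chr13:113662896-113663676 on the minus strand (ENSMUSG00000051456.4, mm10) and shared none of its sequence with another annotated transcript in windows of 100 bases.

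Cryab and Hspb2 lie head to head on chromosome 9 and differed 10.2-fold in level. Cryab (ENSMUSG00000032060.10) occupies chr9:50751325-50756636 on the plus strand and Hspb2 (ENSMUSG00000038086.4) chr9:50751078-50752354 on the minus strand (mm10, GENCODE M21). The log2 ratio of Cryab to Hspb2 was 3.38 in replicate 1 and 3.33 in replicate 2 (3.36 ± 0.04), and 3.61 ± 0.05 in the second quantification. Their annotated spans overlap by 1030 bases, because 2 Cryab transcripts, Cryab-202 and Cryab-206, begin inside Hspb2. These antisense starts held 0.235% and 0.030% of Cryab TPM in the first quantification and 7.88% and 2.35% in the second. In addition, 18.4% of the 100-base windows of Hspb2 and 9.92% of those of Cryab also occur, on the opposite strand, in the other gene. The labels and file headers do not state whether strand was used in counting. The expected counts of both genes, 956 and 1000 for Hspb2 and 9932 and 9890 for Cryab, were whole numbers.

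**Figure D2:**
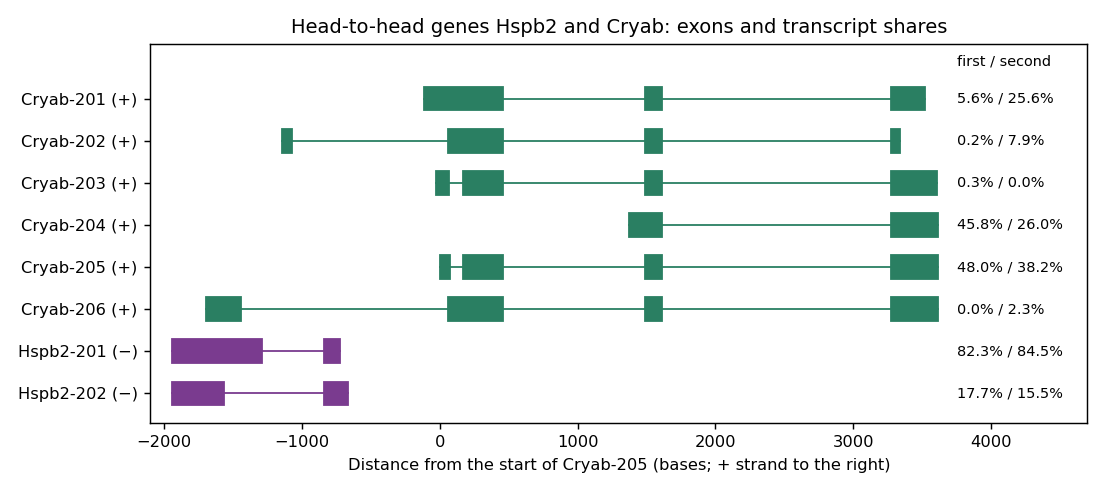
Exons (boxes) and introns (lines) of the 6 Cryab transcripts (green, plus strand) and the 2 Hspb2 transcripts (purple, minus strand), by distance in bases from the start of Cryab-205, with each transcript's percent of its gene's TPM in the first and the second quantification (mean of the libraries). Cryab-204, which keeps intron sequence, holds 45.8% and 26.0%, and the transcripts that begin inside Hspb2 hold little in the first quantification.

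Much of the Cryab signal was given to a transcript with no annotated protein. Cryab-205, a coding transcript with 525 coding bases, held 49.5% and 46.5% of Cryab TPM in replicates 1 and 2. Cryab-204, annotated as a retained intron of 585 bases, held 44.6% and 47.0%, so the leading transcript by TPM was Cryab-205 in replicate 1 and Cryab-204 in replicate 2. On expected counts, not divided by length, Cryab-205 led in both libraries (5741 and 5432, against 3407 and 3619 for Cryab-204). In the second quantification Cryab-205 led in both libraries (35.7% and 40.7%), ahead of Cryab-204 (27.2% and 24.8%) and Cryab-201 (24.6% and 26.6%), which has the same coding length and an earlier start of its first exon. Cryab-201 held 5.81% and 5.45% in the first. Cryab-204 begins in the intron before the middle coding exon. The sequences that separate them are shown, with the 117 intron bases of Cryab-204 in capitals (chr9:50754395-50754511, plus strand), followed by the spliced junction of Cryab-205 at the same exon:
Cryab-204: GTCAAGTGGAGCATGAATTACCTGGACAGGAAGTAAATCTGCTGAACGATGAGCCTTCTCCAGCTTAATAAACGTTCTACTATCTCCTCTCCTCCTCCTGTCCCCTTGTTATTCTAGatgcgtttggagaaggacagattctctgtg
Cryab-205: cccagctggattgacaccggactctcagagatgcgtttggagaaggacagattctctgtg
With coding transcripts only, the first quantification put Hspa8 first, at 383 and 364 TPM, and Hspb7, at 318 and 301, overlapped Cryab. In the second quantification the coding transcripts of Cryab summed to 601 and 645 TPM and stayed above those of Hspa8 (434 and 426).

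Hspb2 had 2 coding transcripts in steady proportion. Hspb2-201, with 546 coding bases, held 82.0% and 82.6% of Hspb2 TPM, and Hspb2-202, with 264 coding bases, held 18.0% and 17.4%. The second quantification gave Hspb2-202 17.5% and 13.4%. The short form lacks 282 bases of the coding sequence (chr9:50751452-50751733, minus strand). The junction is shown with the first 30 of these bases in capitals in Hspb2-201, and without them in Hspb2-202:
Hspb2-201: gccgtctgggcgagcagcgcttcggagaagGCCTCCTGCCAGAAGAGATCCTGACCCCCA
Hspb2-202: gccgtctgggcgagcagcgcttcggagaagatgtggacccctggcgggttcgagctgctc

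Bag3, the co-chaperone that joins HSP70 to small heat shock proteins and to selective autophagy of damaged filamin, was at 68.9 and 67.3 TPM (68.1 ± 1.103, rank 879). It lies at chr7:128523616-128546981 on the plus strand (ENSMUSG00000030847.8) and has 1 annotated transcript with 1731 coding bases. Its values in the libraries were close, and its counts of 4770 and 4500 per library were whole. Hspb8 exceeded Bag3 by 0.51 ± 0.01 on the log2 scale of TPM (1.43-fold), while in CPM, which favours the longer Bag3 transcript, the log2 ratio was -0.012. Hspa8 exceeded Bag3 6.21-fold (2.64 ± 0.05). Bag1, the BAG family member best known as a nucleotide exchange factor of HSP70, was at 80.7 and 84.4 TPM, above Bag3 in both libraries (log2 of Bag3 over Bag1 -0.28 ± 0.07), an order that was reversed in CPM.

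All 8 listed partners of Bag3 in selective autophagy reached 1 TPM, with a median of 79.3 ± 1.499 TPM. The highest were Map1lc3a, an LC3 protein of the autophagosome membrane (294 TPM), Ywhag, a 14-3-3 adaptor (118.5), Sqstm1, the ubiquitin receptor p62 (106), and Map1lc3b (93.5). Within the BAG family outside Bag3, 5 of 5 reached 1 TPM, with a median of 14.1 ± 1.29 TPM, led by Bag6 (103) and Bag1 (82.6), then Bag2 (14.1) and Bag5 (9.83).

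Hspa8, the constitutive cytosolic HSP70 (HSC70) that also uncoats clathrin vesicles, was the highest large chaperone of the 10 genes. It measured 439 TPM in replicate 1 and 408 in replicate 2 (423 ± 21.4, rank 136). It lies at chr9:40800984-40810087 on the plus strand (ENSMUSG00000015656.17). The stress-inducible Hspa1a and Hspa1b were near the threshold of detection, at 0.97 and 1.04 TPM and at 1.63 and 0.99 TPM. Hspa8 exceeded Hspa1a 421-fold (8.72 ± 0.14 on the log2 scale of TPM; 270.5-fold in CPM) and Hspa1b 333-fold (8.38 ± 0.44), although reads are hard to assign between those near-identical copies, so their separate values are uncertain. Hspa2, an HSP70 best known from the testis, was at 4.06 and 3.66 TPM, so that Hspa8 exceeded it 109.8-fold. All 14 listed HSP70 family members outside Hspa8 were at 1 TPM or more on the mean of the libraries, with a median of 11.6 ± 0.385 TPM. The highest were Hspa9 of mitochondria (198 TPM), Hspa5 of the endoplasmic reticulum (170.2), Hspa4, a nucleotide exchange factor (50.2), and Hspa12b (18.2).

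The division of Hspa8 among its transcripts depended on the quantification. Hspa8-201, with 1938 coding bases, held 47.3% and 53.1% in the first and 75.2% and 78.9% in the second. Hspa8-202, with 1881 coding bases, held 32.0% and 31.2% in the first but 0.274% and 0 in the second. The shorter coding transcript Hspa8-205 held 7.97% and 4.92%, then 12.5% and 10.4%. Coding transcripts together held 88.2% of Hspa8 TPM in the first quantification and 88.6% in the second. Transcripts without a coding sequence were also read differently: Hspa8-204, a retained intron, held 6.07% and 10.01% in the first and 0.767% and 0.375% in the second, and Hspa8-203 held 5.55% and 0, then 8.39% and 9.27%. Hspa8-202 lacks 57 coding bases (chr9:40802739-40802795, plus strand), shown in capitals in Hspa8-201, and absent at the junction of Hspa8-202:
Hspa8-201: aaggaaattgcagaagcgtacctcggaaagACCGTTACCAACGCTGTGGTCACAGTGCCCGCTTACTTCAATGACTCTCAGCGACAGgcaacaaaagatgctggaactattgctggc
Hspa8-202: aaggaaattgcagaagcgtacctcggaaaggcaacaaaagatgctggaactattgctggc

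Hspa8 also shares sequence with pseudogenes that were given many reads. Of its 5110 distinct 100-base windows, 28.5% occur exactly in transcripts of 9 other annotated genes, 8 of them pseudogenes. Gm15459, a processed pseudogene, was given 6918 and 6621 expected counts, or 134 and 132 TPM, and the second quantification gave it 135 and 138 TPM. Gm8355 was given 369 and 336 counts. The 8 pseudogenes made up 24.3% and 25.5% of the TPM of Hspa8 and its pseudogenes together, and 24.2% and 25.2% in the second quantification. Added to Hspa8, a choice made after seeing the data, they raised it to 579.6 and 548 TPM, a range that overlaps that of Cryab. Whether these reads came from the pseudogenes or from Hspa8 was not tested. The small nucleolar RNAs Snord14c, Snord14d and Snord14e, which lie within Hspa8 introns, had an effective length of 0 in the first quantification and so were not measured there.

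Hsp90aa1, the stress-inducible cytosolic HSP90, measured 41.3 and 42.9 TPM (42.1 ± 1.14, rank 1479). It lies at chr12:110690605-110702728 on the minus strand (ENSMUSG00000021270.13). Its constitutive counterpart Hsp90ab1 was at 375 and 386 TPM, so that Hsp90ab1 exceeded Hsp90aa1 9.05-fold (3.18 ± 0.01 on the log2 scale) and 6.78-fold in the second quantification. Hspa8 exceeded Hsp90aa1 10.1-fold. The listed HSP90 family outside Hsp90aa1, 3 of 3 at 1 TPM or more, also held Hsp90b1 of the endoplasmic reticulum (100.1 TPM) and Trap1 of mitochondria (67.6). These 3 genes had a median of 100.1 ± 11.1 TPM.

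The transcripts of Hsp90aa1 were also read differently. Hsp90aa1-201, with 2199 coding bases, held 50.3% and 51.3% in the first quantification and 53.9% and 48.3% in the second. Hsp90aa1-204, a retained intron of 325 bases, held 23.2% and 16.5% in the first and 0 in the second. Its share in the first came from only 60.9 and 43.4 expected counts, against 1606 and 1642 for Hsp90aa1-201. Hsp90aa1-207, a coding fragment of 481 bases, held 1.44% and 0.93% in the first and 44.5% and 50.9% in the second, where it led in replicate 2. On counts this short transcript was small even there, with 115 and 151 estimated counts against 2204 and 2268 for Hsp90aa1-201. Hsp90aa1-202, which has the same coding length as Hsp90aa1-201, held 12.2% and 14.8%, then 0.597% and 0.396%.

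**Figure D3:**
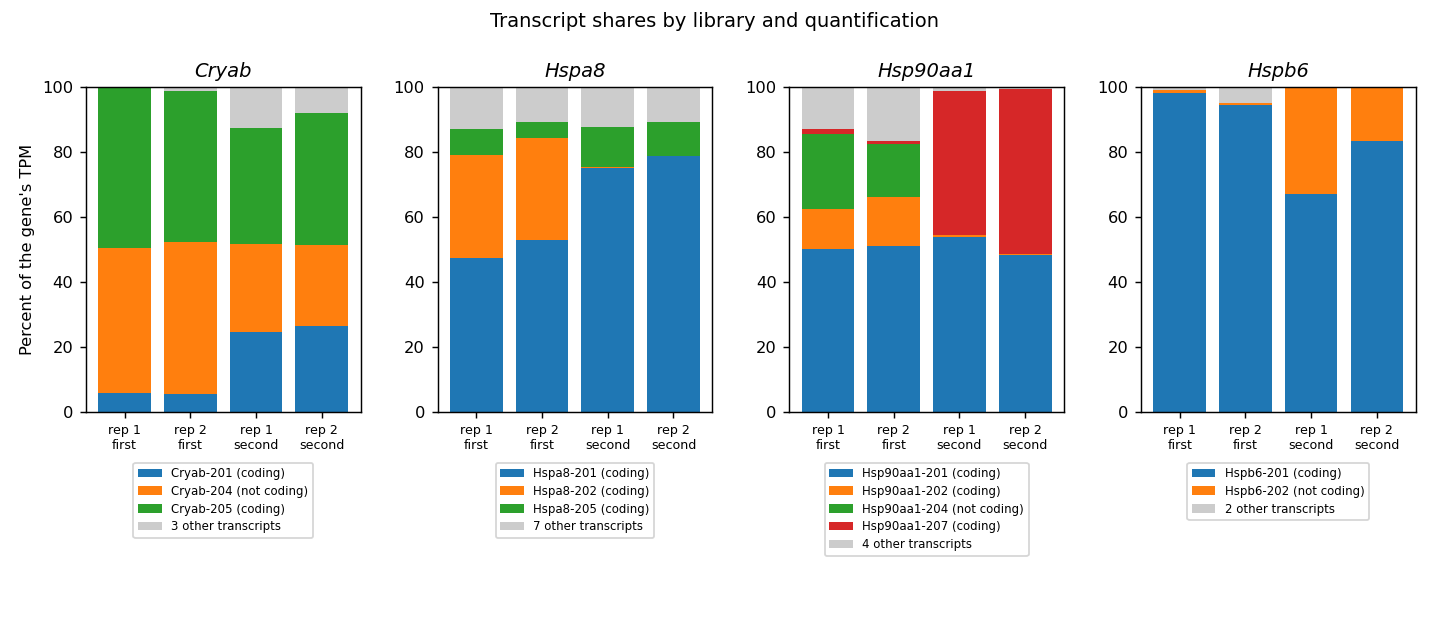
Percent of each gene's TPM (bars, from 0 to 100) in its named transcripts for Cryab, Hspa8, Hsp90aa1 and Hspb6, by library and quantification, with transcripts grouped in grey where they held less. Hspa8-202 holds 32.0% and 31.2% in the first quantification and at most 0.274% in the second, and Hsp90aa1-207 holds 1.44% and 0.93%, then 44.5% and 50.9%.

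Across the 10 genes, 37 transcripts are annotated, and Bag3, Hspb3 and Hspb7 have 1 each. Of the 7 genes with several, 6 had a leading transcript with at least 50% of TPM in the first quantification, against 69.3% of 5401 protein-coding genes with 2 or more transcripts and a mean of at least 10 TPM. In the second it was also 6 of 7, against 66.1%, and Cryab was the exception in both. Hspa8 (50.2%) and Hsp90aa1 (50.8%) passed only narrowly in the first. There the number was 5 on replicate 1 alone and 4 at a threshold of 80%, and the share of the 5401 genes was computed for neither. The leading transcript on the mean of the libraries was the same in both quantifications for 7 of 7, against 75.4% of those genes. Between the libraries of the first quantification it was the same for 6 of 7, against 91.7%, and Cryab was again the exception. Hspb1-201 held 100% and 99.6% and Hspb8-201 100% and 99.3%. Hspb6-201 held 98.2% and 94.5% in the first quantification, but 67.1% and 83.5% in the second, where Hspb6-202, a processed transcript, held 32.6% and 16.3%.

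At the gene level the quantifications were closer. The second gave values higher by a median of 1.19-fold over protein-coding genes, and with that median removed, 0 of the 10 genes differed by 1.5-fold or more, against 6.63% of 11708 genes. Hsp90aa1 (56.6 and 69.4 TPM in the second), Cryab (826 and 858 TPM) and Hspb1 (159 and 164 TPM) were the farthest, at 1.25-fold, 1.23-fold and 1.23-fold above the median shift. Hspb3 was 1.104-fold above it, and the other 6 genes lay between 0.922-fold and 1.04-fold of it. Reads were assigned with less certainty for some genes: the expected count was not whole, within 0.005 of a count, in at least 1 library for Hspa8, Hspb1 and Hsp90aa1 (3 of 10, against 15.4% of genes). Hspb1 shared 44.0% of its 100-base windows with other annotated genes, Hsp90aa1 37.996%, and Hspb6 1.00%, while Bag3, Hspb3, Hspb7 and Hspb8 shared none. The pseudogene Hsp25-ps1 was given 205 and 230 counts, and made up 10.8% and 12.9% of the TPM of Hspb1 and itself. Of the 3 pseudogenes that share windows with Hsp90aa1, Gm12346 was given 82.9 and 47.3 counts and the others none.

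The start regions of 6 of the 10 genes could be read from RefSeq (GRCm38.p6), with 7 annotated starts, each a window of 250 bases before to 50 bases after the start. They were searched on both strands for letters of the heat shock element, the binding site of heat shock factors, which is made of alternating GAA and TTC units. GAANNTTC was found at 5 of the 7 starts, and in 7.86% of all 32851 start regions of the same length in the table. TTCNNGAA was found at 0 of 7 (8.52% of all), and the full heat shock element of 3 alternating units, which holds both shorter words, also at 0 of 7 (0.603%). Positions count from the start site, so that -117 lies 117 bases before it. Hspb1 held GAANNTTC at -117 and -97, the Hspb6 start nearest Hspb6-201 at -120, Hspb3 at -224, Hspb8 at 3 and Bag3 at 43. TATAAA, a word added after seeing the sequences, was found at 2 of the 7 starts, those of Hspb3 and Hspb6, and in 13.6% of all. A match describes letters only and shows no binding.

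The 250 bases before the start are shown for Hspb1, which holds the word at 2 places, and for Hspb7 and Hspb3, the highest and the lowest small heat shock genes with a matched start. Capitals mark GAANNTTC and TATAAA. Hspb1 is read from chr5:135887669-135887918 (plus strand), Hspb7 from chr4:141420529-141420778 (plus strand) and Hspb3 from chr13:113663677-113663926 (minus strand):
Hspb1: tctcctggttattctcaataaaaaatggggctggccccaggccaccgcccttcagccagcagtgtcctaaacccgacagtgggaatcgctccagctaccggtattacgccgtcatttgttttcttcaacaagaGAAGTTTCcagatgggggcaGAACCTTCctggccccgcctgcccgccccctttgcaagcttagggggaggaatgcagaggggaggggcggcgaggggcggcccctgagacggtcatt
Hspb7: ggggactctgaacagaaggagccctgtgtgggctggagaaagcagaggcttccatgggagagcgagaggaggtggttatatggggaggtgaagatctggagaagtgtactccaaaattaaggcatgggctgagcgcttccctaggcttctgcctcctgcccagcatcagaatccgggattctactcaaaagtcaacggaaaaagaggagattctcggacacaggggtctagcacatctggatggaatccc
Hspb3: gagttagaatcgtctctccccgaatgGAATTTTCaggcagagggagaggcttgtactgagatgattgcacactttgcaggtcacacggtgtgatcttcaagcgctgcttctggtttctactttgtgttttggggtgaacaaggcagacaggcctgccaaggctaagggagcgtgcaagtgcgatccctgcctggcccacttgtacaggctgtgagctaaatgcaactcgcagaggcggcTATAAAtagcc
Hspb1, with GAANNTTC at 2 places in its 300-base window, stood at 113 and 107 TPM, Hspb7, with none, at 318 and 301 TPM, and Hspb3, with 1, at 5.74 and 7.46 TPM. Hspb6, Hspb8 and Bag3, with 1 match each, stood at 178 and 179.9, 97.8 and 96.4, and 68.9 and 67.3 TPM. Whether the word goes with level was not tested.

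Between the libraries the 10 genes moved little, like most genes tested. A gene was called different when log2(TPM + 1) had shifted 1.2-fold or more from the median shift of all genes and its deposited intervals in the libraries were apart. Of these genes 0 of 10 were called, against 6.59% of 13043 genes with a mean of at least 1 TPM. Differences stayed within 1.1-fold for 9 of the 10, as for 56.6% of all genes tested. Those genes start at 1 TPM, while these 9 had means of at least 42.1 TPM, and a share at like levels was not computed. With the median shift removed, 6 of the genes were higher in replicate 1 and 4 in replicate 2, and Hspb6 was among the 6 although its TPM before that step was slightly higher in replicate 2 (178 and 179.9). Only for Hspb7 did the intervals not overlap, at any size (1 of 10, against 11.8% of genes), with 307 to 315 TPM in replicate 1 and 290 to 298 TPM in replicate 2 and a difference of 1.08-fold. These intervals belong to a posterior mean TPM, and the file headers do not state their level. On the mean of the libraries, that posterior mean ran slightly below the TPM itself for the 10 genes except Hsp90aa1 (42.8 against 42.1 TPM).

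Hspb3 differed most of the 10, by 1.23-fold with the higher value in replicate 2. Its ratio of CPM, replicate 1 over replicate 2, was 0.757 (exact 95% Clopper-Pearson interval 0.584 to 0.979), and 14.6% of genes differed by more. In the second quantification, where 21% of genes met the fold alone because no intervals are given, Hspb3 met it too (7.58 and 9.83 TPM). Markers of skeletal muscle, another tissue that contains Hspb3, were low in both libraries, and several were higher in replicate 2, like Hspb3. Of 8 markers, 2 reached 1 TPM in replicate 1 and 4 in replicate 2, and their sums were 8.71 and 10.8 TPM. Myh1 had 0 and 63.3 counts, Myh4 0 and 18.3, Atp2a1 19 and 70, Mylpf 7 and 20, and Tnnt3 10 and 24, while Casq1 had 199 and 193 and Tnni2 59 and 43. Their part in the Hspb3 difference was not tested. The count ratios of Hsp90aa1 (0.894, 0.842 to 0.947), Hspb2 (0.907, 0.830 to 0.993), Cryab (0.953, 0.927 to 0.980) and Hspb7 (1.04, 1.02 to 1.06) also had intervals that leave out 1, which covers counting error but not the spread between animals. All these ratios are scaled by library size only. With TMM scaling, a pseudocount of 1 and the median removed, log2 differences were -0.270 for Hspb3, -0.109 for Hsp90aa1 and -0.085 for Hspb2. Those of Cryab and Hspb7 were -0.017 and 0.107. Intervals under that scaling, and the share of all genes with intervals that leave out 1, were not computed.

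**Figure D4:**
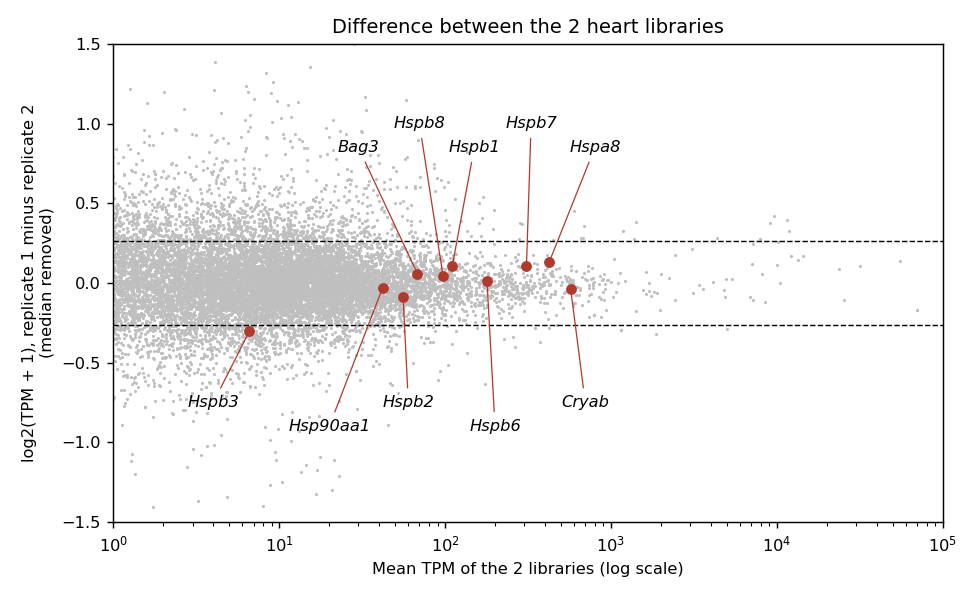
Difference between the libraries in log2(TPM + 1), replicate 1 minus replicate 2 with the median removed, against mean TPM (log axis), for 13043 genes (grey) and the 10 chaperone genes (red). Dashed lines mark 1.2-fold; 9 of the 10 genes lie between them and Hspb3 lies below, while 86 genes lie outside the drawn range of 1.5.

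The tissue label matched the marker genes, with 6 of 6 cardiomyocyte markers at 1 TPM or more and a summed level of 20116 and 20546 TPM. Fibroblast (443 and 431), endothelial (240 and 235) and smooth muscle markers (205 and 210) were all above 1 TPM. Markers of blood differed, at 23885 and 18338 TPM, and those of airway epithelium, 5 of 5 on the mean, differed most, at 178 and 10.2 TPM. Their part in the levels of the chaperone genes was not tested. Between these libraries Hspb3 differed 1.23-fold, Hspa8 1.09-fold, and the other 8 genes less.

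The wider chaperone network was read from 10 fixed lists with 87 distinct genes outside the 10, of which 82 reached 1 TPM and 11 reached 100 TPM. Among all 55536 annotated genes, 13043 had a mean of at least 1 TPM. Of the 11733 protein-coding genes at that level, 5.06% reached 100 TPM. The share of all protein-coding genes at 1 TPM was not computed, so counts at 1 TPM, here and above, describe the lists only. The remaining small heat shock family was almost silent: of Cryaa, Hspb9, Hspb11 and Odf1 only Hspb11, an intraflagellar transport protein, reached 1 TPM (5.53). Hspb9 and Odf1, known from the testis, were at 0.030 and 0.035 TPM. Among co-chaperones of HSP90 and HSP70, 19 of 19 reached 1 TPM, with a median of 37.4 ± 3.13. The highest were the muscle methyltransferase Smyd1 (152 TPM), the immunophilin Fkbp4 (113), the muscle chaperone melusin, Itgb1bp2 (84.4), and the myosin chaperone Unc45b (69.4). J-domain proteins, which deliver clients to HSP70, reached 1 TPM in 16 of 16, with a median of 26.4 ± 2.60, and were led by Dnaja2 (93.8), Dnajc7 (65.9), Dnaja3 (50.3) and Dnajc5 (34.8).

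Mitochondrial chaperones reached 1 TPM in 9 of 9, with a median of 41.4 ± 0.926 TPM, led by Hspa9 (198), Hspd1 (144), Trap1 (67.6) and Hspe1 (51.8). Hspd1 and Hspe1, the barrel and the lid of the mitochondrial chaperonin, differed 2.77-fold in TPM (1.47 ± 0.10 on the log2 scale), 2.12-fold in the second quantification and 9.31-fold in CPM. The 8 subunits of the cytosolic chaperonin, which folds actin and tubulin, all reached 1 TPM, from Cct6a (38.3) upward, with a median of 57.9 ± 0.421 TPM and Tcp1 (76.9), Cct3 (70.7), Cct8 (64.2) and Cct5 (59.8) at the top. On the list of heat shock factors and their binding protein, 3 of 5 genes reached 1 TPM. They were Hsf1, the main activator of the stress response (14.1), Hsf2 (7.75), and Hsbp1, which binds HSF1 and is no factor itself (66.7). Hsf4, known from the lens, was at 0.505 and Hsf5 at 0.020. In the first quantification Cryab and Hspa8 were above all 82 detected genes of these lists. Hspb7 was above all of them there except Hsp90ab1, at 381 TPM. In the second, Map1lc3a (370 and 390 TPM) was also above Hspb7 (368 and 358 TPM). In CPM, Hsp90ab1 (624 and 638) was above Hspa8 (613 and 608) and Cryab (274 and 288). Cryab, with 9932 and 9890 expected counts, was also below Hspa9 (16253 and 15550), Flnc (13828 and 15198), Smyd1 (13322 and 13800) and Hspa5 (9973 and 11079).

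**Figure D5:**
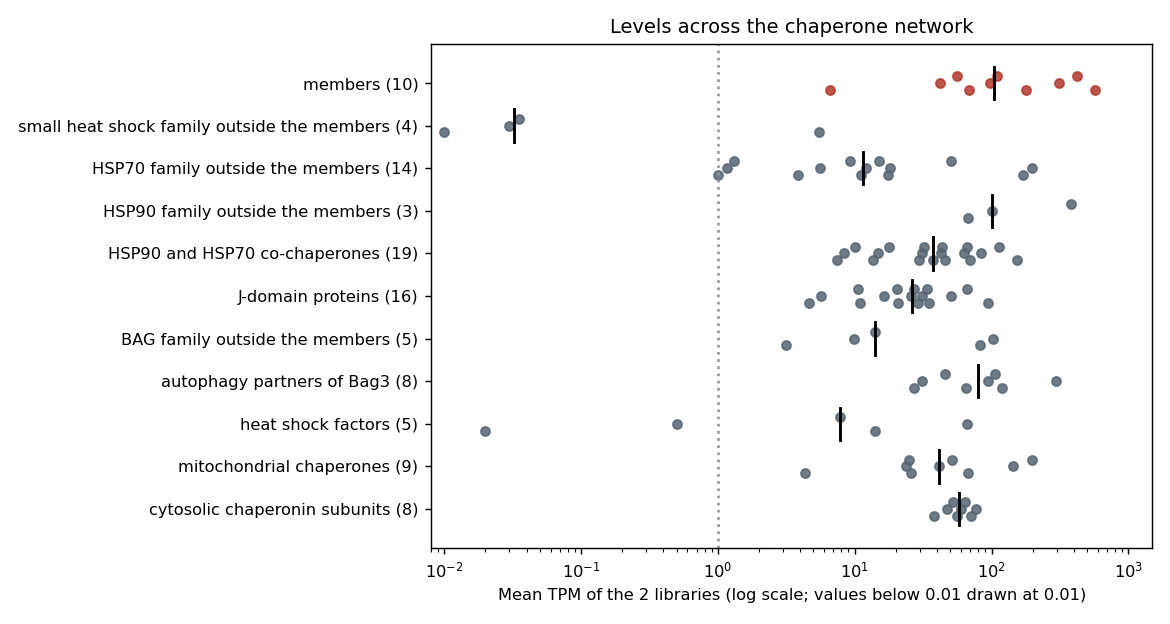
Mean TPM of the 2 libraries (log axis, values below 0.01 drawn at 0.01) for the 10 chaperone genes (red) and for each gene of 10 lists of the chaperone network (grey), with the number of genes in brackets, the median as a black bar and 1 TPM as a dotted line. The 10 genes have a median of 103.7 TPM, and the small heat shock family outside them has 1 gene of 4 above the dotted line.

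Of the 82 listed genes, 4 were called different between the libraries, and all 4 were higher in replicate 1. The call is a rule of size, not a test, and it also picks genes whose libraries differ only by ordinary spread. They were Fkbp5, an immunophilin of HSP90 and a known glucocorticoid target (15.5 and 4.53 TPM, 3.03-fold), Dnajb5 (28.8 and 22.5 TPM, 1.29-fold), Sqstm1 (118 and 93.2 TPM, 1.29-fold) and Hspa12b (20.2 and 16.3 TPM, 1.25-fold). Among all 13043 genes, 3.9% were called higher in replicate 1 and 2.69% higher in replicate 2. Dnajb5 and Fkbp5 were named here because they passed the call, after their values were seen.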

How the data were processed

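Both heart libraries were analysed from gene and transcript tables made for mm10 with GENCODE M21, per the readme files. Programs, versions, strand use and the handling of CAST/EiJ alleles were not given in the sources used here. Of both quantifications, the first (columns named as in RSEM output) holds an expected count per feature, an unnormalized estimate by the authors per the file headers. The deposited TPM values are such counts divided by effective length and scaled to the same sum, and a score of precision, the interval of a posterior mean TPM, stands beside each per the file headers. Transcript tables add the percent of gene TPM per transcript, per the file headers. The second quantification (columns as kallisto writes them) gives estimated counts and TPM per transcript, which were summed per gene. Transcripts were shortened by 99 bases to give the effective length in the first, and by about 335 and 334 bases in the second.

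Levels were given per library with mean and SD. CPM used the 36197643 and 34358598 counts in annotated genes, where a count of 0 allows up to 3 counts. Ratios of counts carry exact Clopper-Pearson intervals at 95%. Gene calls used the rules of size stated with each result and a pseudocount of 1. Alternatives used TMM scaling (edgeR 4.0.16, R 4.3.3), DESeq2 1.42.0 size factors, the other quantification, CPM, TPM summed over nuclear protein-coding genes, other thresholds and each library alone. Tested on simulated data with the spread between libraries set at 10%, the calling rule also called genes that had not been changed. It called 14.3% and 14.4% of them in runs where other genes were changed 1.5-fold and 2-fold. A call therefore describes these libraries only. Named in the text are the 10 genes, the 4 highest genes and any below 1 TPM of each list, fixed pairs, and transcripts with at least 10% of a gene's TPM or in the lead; other transcripts and the pseudogenes were named after their values were seen. The genes, lists and rules were chosen with earlier results of these data known. Shared sequence was counted as exact 100-base windows of transcripts on either strand. Protein sequences were not analysed here. Python 3.11.15 with pandas 2.3.3, numpy 2.4.6 and scipy 1.17.1 was used.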

Additional observations from a re-analysis of the deposited data

How the results depend on the processing

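Hspb3 rests on 110 and 138 counts, while the other 9 genes held at least 956 in each library. The median of the 10 genes (103.7 TPM) became 139 in the second quantification, 131 in CPM and 241 with TPM summed over nuclear protein-coding genes. It became 132 over coding transcripts in the second quantification and 111 with pseudogenes added. The number at 100 TPM became 8 in place of 5 over nuclear protein-coding genes. That scale raises all genes alike, as for Cryab from 572 to 1329 TPM. The 5.06% of genes at 100 TPM does not apply there, and no share was computed. The Cryab share (43.0%) was 47.9% in the second quantification, 21.1% in CPM, and 29.2% and 41.8% over coding transcripts in the first and the second. In CPM the log2 ratio of Hspb8 to Bag3 was -0.012 in place of 0.51 and that of Bag3 to Bag1 0.75 in place of -0.28. The number of genes that differed between the libraries was 1 in the second quantification in place of 0. The fold alone was applied there, and 21% of 13037 genes met it. At a threshold of 10 TPM, 0 in place of 1 of the small heat shock family outside the 10 genes, 8 in place of 14 of the HSP70 family and 3 in place of 5 of the BAG family were counted. The other 73 alternatives of these summary values changed none by more than the spread between libraries or 1.5 times, each library alone included. No paired analysis was possible because there is only 1 group.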
